A study of Homo sapiens with 2 samples.

Results

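The matrix metalloproteinases (MMP), the ADAM and ADAMTS proteases and the tissue inhibitors of metalloproteinases (TIMP) were described in 2 cultures labelled OVCAR-3, the name of an established human ovarian carcinoma line. One culture carried a blank viral vector and is called the control. The other overexpressed IGF2BP3, which binds transcripts carrying m6A marks. The promoter of the vector and whether the line was a single clone were not stated in the labels. Each group was 1 library of poly(A) RNA, so every difference is between these libraries and no replicate error or test can be given. The genes were those whose symbol was MMP, ADAM, ADAMTS or TIMP followed by a number alone, and 45 of the 28038 listed genes met that rule. They comprised 15 MMP, 13 ADAM, 13 ADAMTS and 4 TIMP genes. RefSeq holds 65 protein-coding genes with such symbols, and 20 of them were not among the listed rows, including the gelatinase MMP2 and the matrilysin MMP7.

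MMPs are zinc-dependent endopeptidases, mostly secreted as inactive proenzymes, that cut collagens, proteoglycans and other matrix proteins. ADAMs are membrane-anchored relatives that release the outer parts of growth factors, receptors and adhesion molecules, although some of them lack a working catalytic site. ADAMTS proteases are secreted, carry thrombospondin repeats, and trim procollagens or cut large proteoglycans. TIMPs bind the catalytic site of these enzymes and block it. In ovarian carcinoma these families are studied for their part in peritoneal spread.

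In total, 43190215 counts were listed for the control and 48017861 for the overexpression library. IGF2BP3 itself went from 2944 counts in the control to 6376 under overexpression, a 1.96-fold difference with a counting interval of 1.84 to 2.09. Markers of the labelled cell type went against the label: of 9 epithelial or ovarian carcinoma markers chosen, 7 were listed and 6 of these were under 1 FPKM in both libraries, with CDH1 at 2 counts in each library, KRT19 at 2 and 0, PAX8 at 28 and 32 and EPCAM at 57 and 56. KRT18 was the exception, at 33.6 and 33.1 FPKM. The name OVCAR-3 is therefore used here only as the label gives it. Of the 5 mesenchymal markers, VIM stood at 422 and 414 FPKM and S100A4 at 193 and 233 FPKM, the latter with a ratio of 1.21 (1.16 to 1.26) and the only interval of the marker lists that did not include 1-fold. ZEB1 was at 6.62 and 6.79 FPKM, CDH2 at 1.53 and 1.45 FPKM, and TWIST1 at 0.522 and 0.323 FPKM with a ratio of 0.624 (0.304 to 1.25). Summed levels of fibroblast markers were 0.572 and 0.570 FPKM, those of leukocyte markers 0.134 and 0.0819 FPKM, and the single listed endothelial marker, VWF, had 0 and 4 counts. In bulk RNA, fewer cells of a type and less RNA per cell cannot be told apart.

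What unites the proteases is a zinc-binding signature in the catalytic domain: histidine and glutamate, 2 further residues, histidine, 2 residues, glycine or, in a few ADAMTS genes, asparagine, 2 residues, and a last histidine. The codons of this signature were searched in frame in the complete coding sequences of GENCODE release 29 on GRCh38, where 65 of 19497 protein-coding genes (0.333%) held it. All 15 MMP genes held it, 9 of 13 ADAM genes and 12 of 13 ADAMTS genes, the last including 3 with asparagine alone (ADAMTS1, ADAMTS4 and ADAMTS15). None of the 4 TIMP genes did. The 4 ADAM genes without it were ADAM11, ADAM22, ADAM23 and ADAM32, and they are treated below as the non-catalytic ADAMs. The ADAMTS gene without a match was ADAMTS8, and the missing match was not taken to mean that this gene is non-catalytic. The stretches of 33 bases are shown for the proteases on which the results turn, with the codons of the 3 histidines, the glutamate and the glycine or asparagine in capitals.
MMP1: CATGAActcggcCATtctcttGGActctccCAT
MMP10: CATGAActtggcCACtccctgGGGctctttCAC
MMP3: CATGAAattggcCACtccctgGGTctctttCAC
MMP17: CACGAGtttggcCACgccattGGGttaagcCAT
ADAM10: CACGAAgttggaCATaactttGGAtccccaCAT
ADAM17: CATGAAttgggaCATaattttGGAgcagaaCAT
ADAMTS1: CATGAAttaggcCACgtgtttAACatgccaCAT
ADAMTS5: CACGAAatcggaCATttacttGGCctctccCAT
The MMP1 stretch lies in coding exon 5 at chr11:102795549-102795581, that of MMP10 in exon 5 at chr11:102776718-102776750, that of MMP3 in exon 5 at chr11:102840535-102840567 and that of MMP17 in exon 5 at chr12:131841659-131841691, the first 3 on the minus strand and the last on the plus strand. The stretch of ADAM17 is in exon 11 at chr2:9510078-9510110, minus strand. In ADAM10 (chr15:58627881-58633225), ADAMTS1 (chr21:26841143-26841867) and ADAMTS5 (chr21:26943525-26954748), all on the minus strand, an intron divides the codons, so these spans include it. MMP10 and MMP3 differed at 2 of the 33 bases, MMP1 and MMP10 at 8, and ADAM10 and ADAM17 at 8. MMP1 and ADAMTS5, of different subfamilies, differed at 6. Among the stretches shown, this was the fewest for any pair from different subfamilies, and such pairs differed at up to 17, as MMP10 and ADAM17 did.

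Levels of different genes are compared as the deposited FPKM, which is scaled to gene length and to the total counts. Expression was concentrated in few genes: 15 of the 45 reached 1 FPKM in at least 1 library and 8 reached 10 FPKM. MMP10, the stromelysin that cuts proteoglycans, fibronectin and laminin, was at 404 FPKM in the control and 358 FPKM under overexpression, ranking 42nd and 51st among all listed genes. TIMP1, an inhibitor of most secreted MMPs, was at 354 and 391 FPKM, ranking 57th and 44th. MMP1, the interstitial collagenase, was at 142 and 204 FPKM and moved from rank 188 to rank 121. Below these stood MMP3, the other stromelysin, at 90.8 and 77.2 FPKM. No other family gene exceeded 20 FPKM in either library, and the median over the 45 genes was 0.276 FPKM in the control and 0.293 FPKM under overexpression.

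**Figure D1:**
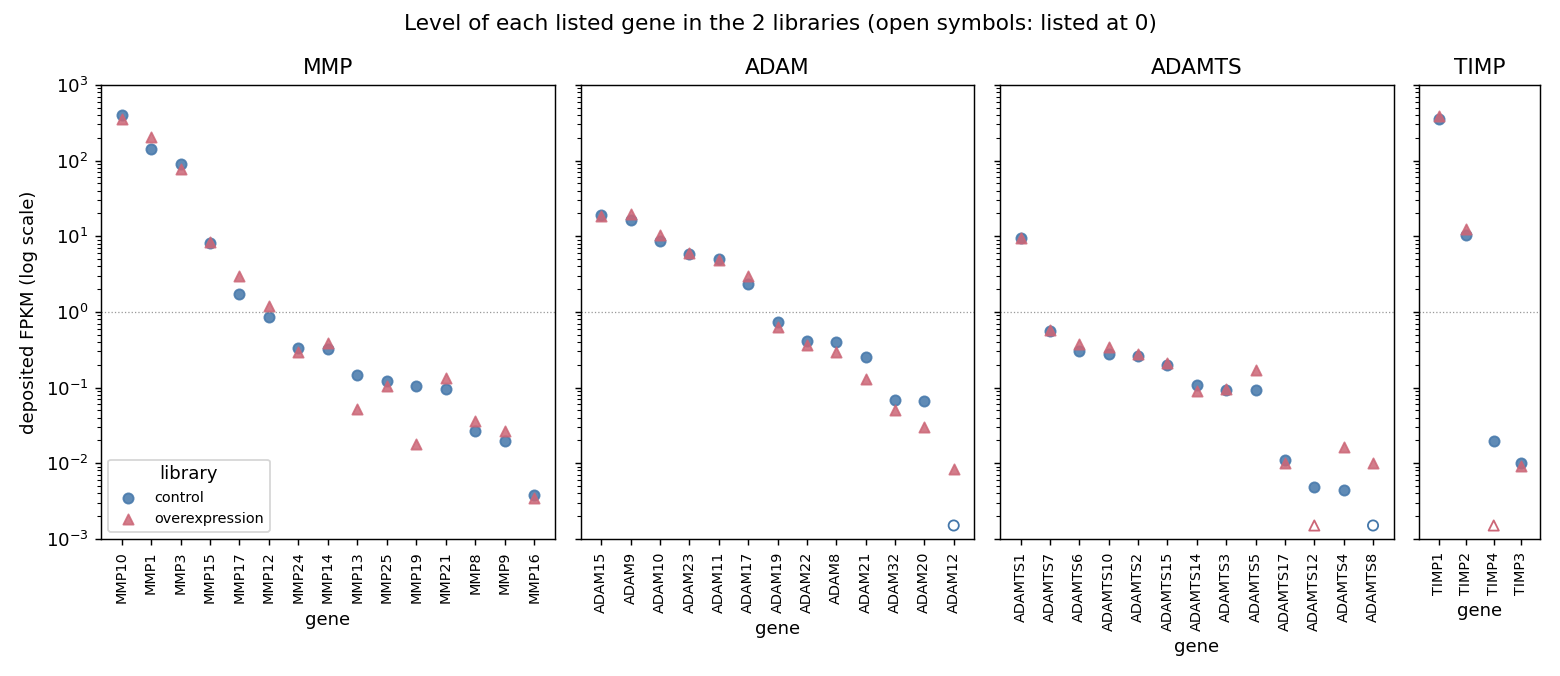
Deposited FPKM (log axis) of each of the 45 listed genes, by subfamily and in order of the control level; circles are the control library, triangles the overexpression library, open symbols genes listed at 0, and the dotted line is 1 FPKM. MMP10, MMP1, MMP3 and TIMP1 stand above 70 FPKM and ADAMTS1 far above the other ADAMTS genes, while the ADAM levels form a continuous series.

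A ratio of overexpression over control was taken for the 30 genes whose counts summed to 50 or more. It was the ratio of CPM, counts scaled to a fixed library total, after scaling the libraries with TMM. Its 95% counting interval came from halved counts, because even counts were in excess of odd ones. Intervals cover counting error only. Of the 30, 19 had a ratio above 1 and 11 below, that is 63.3% above against 51.1% of the 14157 genes with enough counts. At least 1.5-fold higher were 2 genes, MMP17 and ADAMTS5 (6.67% of the family, background 3.52%), and at least 1.5-fold lower was 1, ADAM21 (3.33%, background 2.72%). The counting interval lay above 1-fold in 8 genes (26.7%, background 15.9%) and below it in 2 (6.67%, background 10.9%). These 10 were MMP1, MMP17, TIMP1, TIMP2, ADAM9, ADAM10, ADAM17 and ADAMTS5 on the higher side and MMP3 and MMP10 on the lower. The median log2 ratio was 0.06 over the 30 genes and 0.00 over all 14157.

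**Figure D2:**
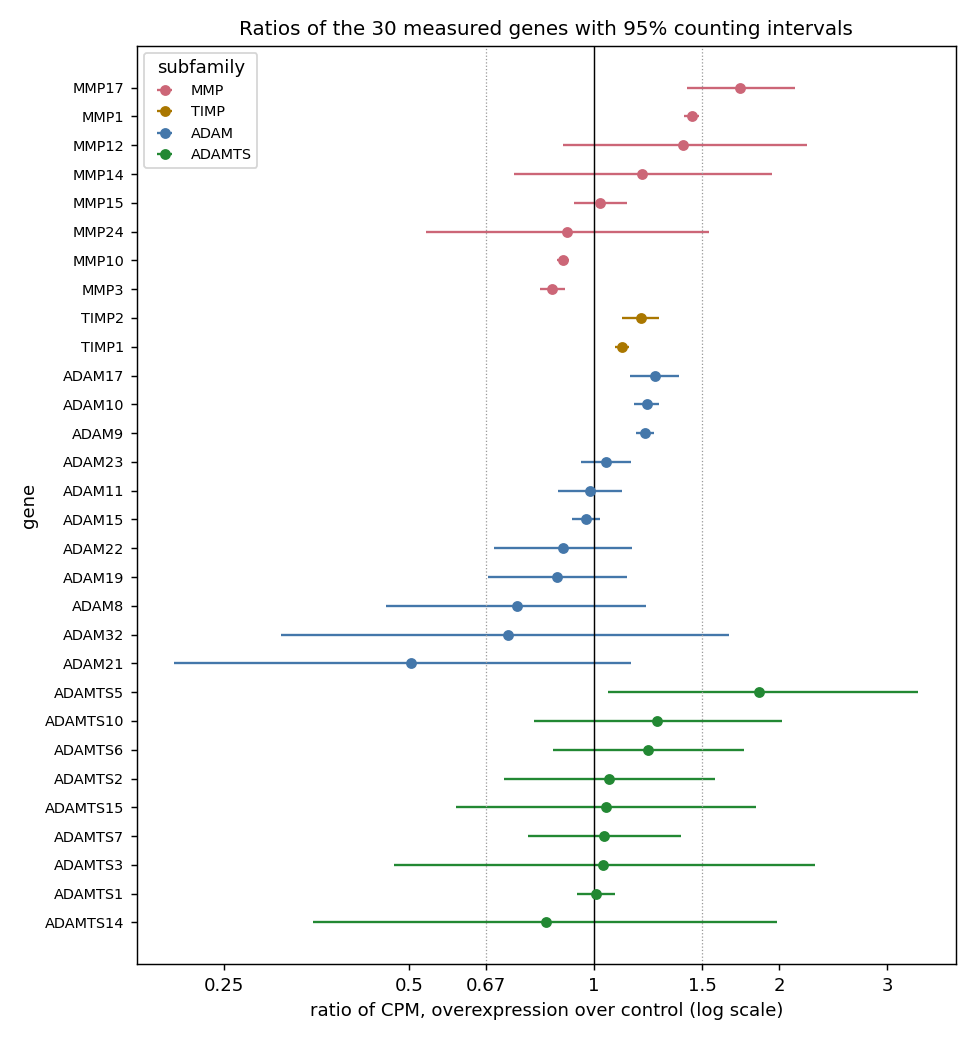
Ratio of CPM, overexpression over control (log axis), for the 30 genes with at least 50 counts, coloured by subfamily; bars are 95% counting intervals from halved counts, the solid line is 1-fold and the dotted lines mark 1.5-fold either way. The bars of MMP1, MMP17, both TIMPs, 3 ADAMs and ADAMTS5 lie above 1-fold and those of MMP3 and MMP10 below it; the other 20 cross it.

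Among the secreted MMPs, the collagenase and the stromelysins differed in opposite directions. In the control MMP1 had 16828 counts (388 CPM), and under overexpression 26807 counts (560 CPM), which gave a ratio of 1.44 (1.40 to 1.48). Its log2 fold change in the authors' deposited table was 0.52. MMP10 had 30665 and 30202 counts (708 and 631 CPM), a ratio of 0.892 (0.872 to 0.912), and MMP3 had 7267 and 6870 counts (168 and 144 CPM), a ratio of 0.856 (0.817 to 0.897). The overexpression library thus had the higher value for MMP1 and the lower value for both stromelysins. Among the 2056 genes whose counts summed to 10000 or more, 7 (0.34%) had a ratio at least as high as that of MMP1, itself included. A ratio at least as low as that of MMP3 was seen in 20 (0.973%), and as that of MMP10 in 52 (2.53%), each gene included. Over all 14157 genes, low-count ones among them, these shares were 4.13%, 11.9% and 16.6%.

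The counts of 2 genes within a library can be compared without any scaling between libraries. MMP1 counts were 0.549 times those of MMP10 in the control and 0.888 times under overexpression, a change of 1.62-fold (exact conditional interval from halved counts 1.56 to 1.68). Against MMP3 the change was 1.69-fold (1.60 to 1.78). MMP3 counts were 0.237 and 0.227 times MMP10 counts, a change of 0.960-fold (0.911 to 1.01). The interval for the 2 stromelysins included 1-fold, while those for MMP1 against either lay above it.

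By deposited FPKM, the make-up of MMP expression differed more than its sum. The summed level of the 15 MMP genes was 649 FPKM in the control and 652 FPKM under overexpression. MMP10 held 62.2% of that sum in the control and 54.8% in the overexpression library, MMP1 21.9% and 31.3%, and MMP3 14.0% and 11.8%. These 3 genes together made up 98.2% and 97.9% of the sum. The sum and the shares depend on the gene lengths used. The length implied for MMP1 was 1.39 times its GENCODE exon length, and that for MMP3 0.905 times. With GENCODE lengths MMP1 would stand at 198 and 283 FPKM, MMP3 at 82.2 and 69.9 FPKM and MMP10 at 404 and 358 FPKM.

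**Figure D3:**
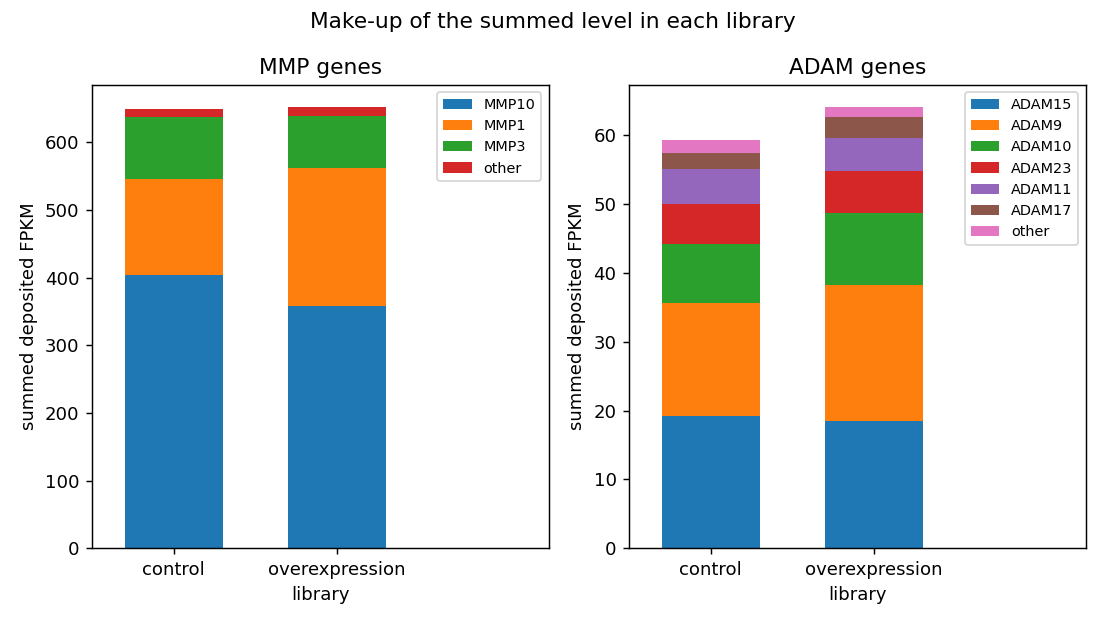
Summed deposited FPKM of the MMP genes (left) and ADAM genes (right) in the control and the overexpression library, stacked by gene. The MMP bars have nearly the same height, 649 and 652 FPKM, with a larger MMP1 share on the right. The ADAM bars reach 59.3 and 64.1 FPKM. Both use the deposited gene lengths, of which that of MMP1 is 1.39 times and that of ADAM9 2.56 times its GENCODE exon length.

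MMP10, MMP1 and MMP3 belong to a group of MMP genes on chromosome 11 (GRCh38). In order along the chromosome, and all on the minus strand, the 6 listed ones were MMP8 (chr11:102711795-102727050), MMP10 (chr11:102770503-102780628), MMP1 (chr11:102789920-102798160), MMP3 (chr11:102835801-102843803), MMP12 (chr11:102862736-102875034) and MMP13 (chr11:102942995-102955734). They spanned 244 kb, with 9.29 kb between MMP10 and MMP1 and 37.6 kb between MMP1 and MMP3. The 3 abundant genes were thus consecutive among the 6 listed, and the higher ratio of MMP1 lay between the lower ratios of MMP10 and MMP3. MMP12, the macrophage elastase, was far less abundant at 0.864 and 1.20 FPKM. It had 68 and 105 counts and a ratio of 1.40, with an interval that crossed 1-fold (0.891 to 2.22). At the ends, the neutrophil collagenase MMP8 had 4 and 6 counts and collagenase 3, MMP13, had 18 and 7 counts, too few for a ratio.

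**Figure D4:**
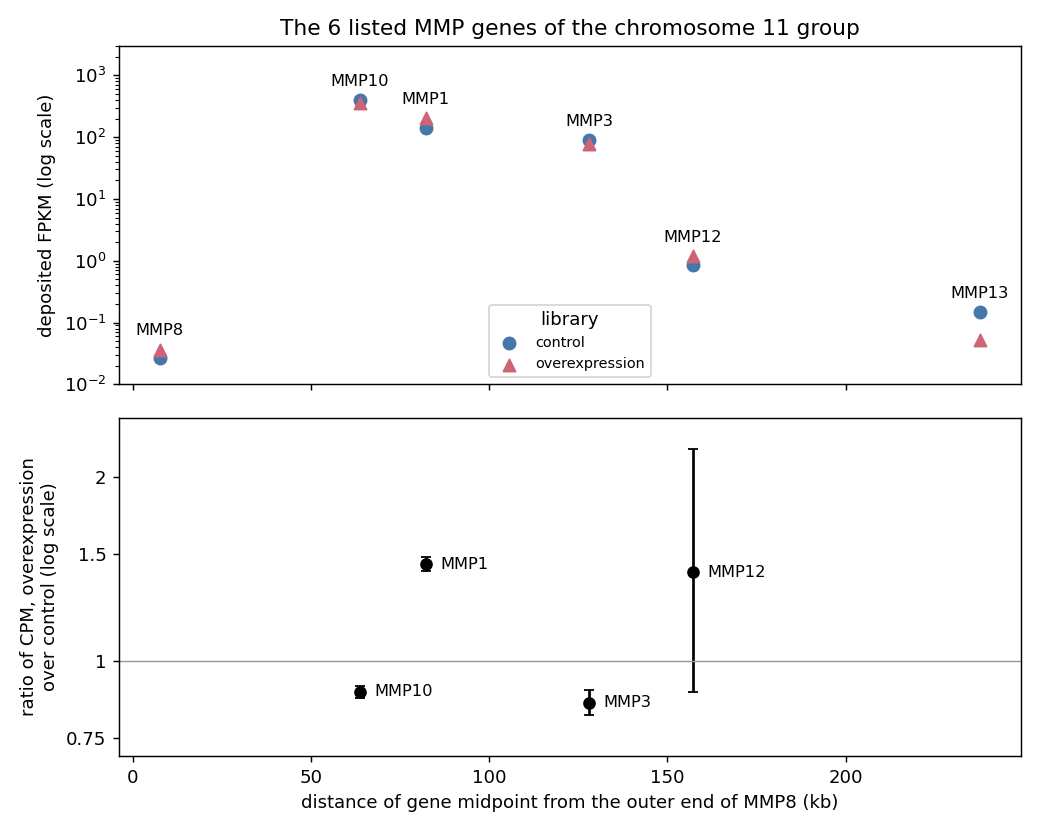
The 6 listed MMP genes of the chromosome 11 group, placed by the distance of each gene's midpoint from the outer end of MMP8 in kb. The upper panel gives the deposited FPKM (log axis, circles control and triangles overexpression), the lower panel the ratio of CPM with its 95% counting interval for the 4 genes with enough counts; MMP1 lies above 1-fold and its neighbours MMP10 and MMP3 below.

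Sequence likeness bears on how reads of this group can be told apart. The coding sequences of MMP10 and MMP3 were 84.9% identical over 1434 aligned positions, while MMP1 was 63.0% identical to MMP10 and 64.0% to MMP3. Of the 31-base words in the annotated transcripts, 7.12% of those of MMP10 and 6.11% of those of MMP3 occurred in another gene, for both most often the other of this pair. MMP1 shared none. WTAPP1, a pseudogene on the opposite strand, overlaps 150 exon bases of MMP1 and 32 of MMP3, and had 44 and 48 counts. The strand setting of the counting is not given in the sources used here.

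The 150 bases upstream of the RefSeq start of MMP10 are shown because it was the most abundant listed MMP and its promoter sequence was in the RefSeq table (GRCh38.p14, minus strand, chr11:102780629-102780778), with a TATA box in capitals whose first base lies 31 bases before the start.
MMP10: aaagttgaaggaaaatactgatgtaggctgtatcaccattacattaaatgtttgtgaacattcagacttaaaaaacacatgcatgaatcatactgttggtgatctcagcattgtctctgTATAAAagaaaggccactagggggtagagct
Promoter windows were matched for 27 of the 45 genes. A family gene counted as holding a motif if any of its windows did, whereas the shares over all windows take each window separately. In the 250 bases upstream of the start, TATAAA was found on either strand in 4 of the 27 (MMP8, MMP10, MMP21 and ADAMTS10), against 10.7% of all 35116 windows. The GC box GGGCGG was found on either strand in 20 of the 27, against 42.6% of all windows. MMP10 had 34.4% G and C in this window and MMP8 36.4%, where the median over the matched windows of the family was 70.4% and that over all windows 58.0%. MMP10 and MMP8 thus shared an AT-rich upstream window with a TATAAA match, at levels of 404 and 0.0269 FPKM in the control library. The windows of ADAM20 (36.4%) and ADAM21 (39.6%) were also AT-rich, without a TATAAA match. MMP1, MMP3, MMP12 and MMP13 had no matched window, so the pair cannot be compared with them.

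The membrane-type MMPs, which stay on the cell surface and cut matrix next to the cell, were at lower levels. MMP17, held in the membrane by a lipid anchor, went from 298 counts (6.88 CPM) to 570 counts (11.9 CPM), or 1.72 and 2.97 FPKM. Its ratio was 1.73 (1.42 to 2.13), against a log2 fold change of 0.78 in the authors' deposited table. MMP15, a transmembrane member, was the most abundant of them, at 8.17 and 8.32 FPKM from 1493 and 1690 counts, with a ratio of 1.02 (0.928 to 1.13). Relative to MMP15 in the same library, MMP17 changed 1.69-fold (1.35 to 2.12). MMP14, the activator of pro-MMP2 on many cells, had 65 and 86 counts and a ratio of 1.20 (0.742 to 1.95), and MMP24, known from neural tissue, 62 counts in each library and a ratio of 0.905 (0.532 to 1.54). MMP14 was at 0.326 and 0.387 FPKM, so the 2 membrane-type genes with most counts were MMP15 and MMP17. MMP16 had 2 counts in each library. MMP24 shares 799 exon bases with MMP24OS on the opposite strand, which had 209 and 253 counts, so the reads of MMP24 are uncertain without a known strand setting. The same holds for MMP25, with 25 and 24 counts, which shares 1454 exon bases with MMP25-AS1 at 122 and 119 counts.

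The other MMPs had few counts. The gelatinase MMP9 had 2 and 3 counts, at or under the floor of 3 counts in both libraries. MMP19 had 21 counts in the control and 4 under overexpression, and MMP21 14 and 22. None of these reached the count minimum. MMP25, with 49 counts in all, was the last gene outside the minimum, and ADAMTS14, with 50, the first inside it.

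Both abundant inhibitors were higher in the overexpression library (background 51.1% with a ratio above 1 and 15.9% with an interval above 1-fold). TIMP1 (chromosome X) went from 22100 counts (510 CPM) to 27126 counts (567 CPM), a ratio of 1.11 (1.08 to 1.14). TIMP2, which also takes part in the activation of pro-MMP2 by MMP14, had 2789 and 3670 counts and a ratio of 1.19 (1.11 to 1.28), at 10.4 and 12.3 FPKM. Of genes with at least 10000 counts, 14.8% had a ratio at least as high as that of TIMP1, and of all 14157 genes 21.3%. For TIMP2 the share of all genes was 11.8%. The difference in TIMP1 was thus small but well counted. TIMP3 had 2 counts in each library and TIMP4 1 and 0, all under the floor. TIMP1 made up 97.1% and 96.9% of the summed TIMP level. The summed TIMP level was 0.562 times the summed MMP level in the control and 0.618 times under overexpression. These 2 values rest on the deposited lengths, that of MMP1 being 1.39 times its GENCODE exon length. Per gene, the picture depended on the enzyme: relative to TIMP1 counts, MMP1 was higher in the overexpression library, since TIMP1 counts went from 1.31 to 1.01 times those of MMP1 (0.771-fold, 0.742 to 0.800), whereas TIMP1 counts went from 0.721 to 0.898 times those of MMP10 (1.25-fold, 1.20 to 1.29).

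Of the 7 catalytic ADAMs with enough counts, 3 had ratios and intervals above 1-fold (background 15.9%) and 4 had ratios below 1 with intervals that crossed it. ADAM10, the sheddase of Notch receptors and cadherins, had 5928 and 7978 counts (137 and 167 CPM) and a ratio of 1.22 (1.16 to 1.28). ADAM17, which releases TNF and several ligands of the EGF receptor, had 1624 and 2252 counts (37.5 and 47.1 CPM) and a ratio of 1.26 (1.15 to 1.38). ADAM9, another membrane-bound sheddase, had 12562 and 16796 counts (290 and 351 CPM) and a ratio of 1.21 (1.17 to 1.25). All 3 intervals overlapped one another. Of all 14157 genes, 10.1% had a ratio at least as high as that of ADAM10, 8.27% as that of ADAM17 and 10.5% as that of ADAM9. Among genes with at least 10000 counts, as ADAM10 and ADAM9 had, the shares for these 2 were 2.97% and 3.31%. An interval leaves 1-fold more readily in genes with many counts. ADAM15, an ADAM with an integrin-binding disintegrin domain, had 5455 and 5854 counts and a ratio of 0.971 (0.922 to 1.02), with an interval below those of the other 3. Within each library, counts relative to ADAM15 changed 1.25-fold for ADAM10 (1.17 to 1.35), 1.29-fold for ADAM17 (1.16 to 1.44) and 1.25-fold for ADAM9 (1.17 to 1.33).

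ADAM15 and ADAM9 were the most abundant ADAMs by deposited FPKM, ADAM15 at 19.2 and 18.5 and ADAM9 at 16.4 and 19.8, followed by ADAM10 at 8.59 and 10.4. The order of ADAM9 depends on the gene length used: the deposited values imply 17704 bases for ADAM9, 2.56 times its exon length in GENCODE release 29, and with the latter it would stand at 42.1 and 50.6 FPKM. The remaining catalytic ADAMs were low. ADAM19 had 245 and 236 counts and a ratio of 0.872 (0.671 to 1.13), and ADAM8, known from leukocytes, 81 and 67 counts and a ratio of 0.749 (0.459 to 1.21). ADAM21, a gene known from testis, had 36 and 20 counts and a ratio of 0.503, with an interval of 0.207 to 1.15 that crossed 1-fold. It shared 41.2% of its 31-base words with other genes, most often the pseudogene ADAM21P1, so its value is uncertain. ADAM20 had 8 and 4 counts and ADAM12 0 and 4.

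The 4 ADAMs without the zinc-binding codons showed no interval on one side of 1-fold (background 15.9% above it and 10.9% below). Most measured genes also crossed 1-fold, so 4 such genes do not set this group apart. ADAM23, ADAM11 and ADAM22 are known as neural proteins that bind secreted LGI proteins. ADAM23 had 1624 and 1876 counts (5.85 and 6.08 FPKM) and a ratio of 1.05 (0.951 to 1.15), and ADAM11 1038 and 1130 counts (4.99 and 4.89 FPKM) and a ratio of 0.985 (0.873 to 1.11). Both were more abundant per length than ADAM17, at 2.36 and 2.94 FPKM. ADAM22 had 245 and 241 counts and a ratio of 0.890 (0.687 to 1.15), and ADAM32 had 30 and 24 counts and a ratio of 0.724 (0.310 to 1.66). The summed level of the non-catalytic group was 11.3 and 11.4 FPKM, that of the catalytic group 48.0 and 52.7 FPKM. With GENCODE exon lengths, a choice made after seeing the data, the catalytic sum was 74.8 and 84.9 FPKM and the non-catalytic sum 11.4 and 11.5 FPKM, so the catalytic sum depends on the length taken for ADAM9.

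ADAMTS expression came mainly from 1 gene. ADAMTS1, a proteoglycanase of versican and aggrecan, had 2988 and 3329 counts and stood at 9.47 and 9.49 FPKM, which was 83.1% and 81.3% of the summed ADAMTS level. Its ratio was 1.01 (0.940 to 1.08). Its neighbour on chromosome 21, the aggrecanase ADAMTS5 (chr21:26917912-26966513, minus strand, beside ADAMTS1 at chr21:26835747-26845409), was far less abundant, at 0.0925 and 0.171 FPKM. ADAMTS5 had 39 and 80 counts (0.900 and 1.67 CPM) and a ratio of 1.86 (1.06 to 3.37), against a log2 fold change of 0.88 in the authors' deposited table. With so few counts the interval began close to 1-fold. Relative to ADAMTS1 in the same library, ADAMTS5 changed 1.84-fold (1.06 to 3.47).

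The other ADAMTS genes stayed below 0.6 FPKM, and the 7 of them with enough counts had intervals that crossed 1-fold. Over all measured genes, 15.9% had an interval above 1-fold and 10.9% one below it. The procollagen N-proteinases, which trim the amino ends of fibrillar procollagens, were ADAMTS2 with 101 and 118 counts and a ratio of 1.06 (0.714 to 1.57), ADAMTS3 with 28 and 32 counts and ADAMTS14 with 26 and 24 counts. ADAMTS7, which cuts cartilage oligomeric matrix protein, had 189 and 217 counts and a ratio of 1.04 (0.782 to 1.38), and it shared 26.6% of its 31-base words with other genes, most often the pseudogene ADAMTS7P1. ADAMTS6 and ADAMTS10, a pair linked to fibrillin microfibrils, had 114 and 154 and 68 and 95 counts, with ratios of 1.22 (0.857 to 1.75) and 1.26 (0.797 to 2.03). ADAMTS15, a proteoglycanase, had 52 and 60 counts and a ratio of 1.04 (0.597 to 1.84). ADAMTS4, ADAMTS8, ADAMTS12 and ADAMTS17 each had between 2 and 10 counts over both libraries.

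Within 1 Mb of the 10 genes whose interval lay on one side of 1-fold, no neighbour with enough counts was 2-fold higher or lower. The same held for most of the other listed family genes, so it does not set the 10 apart.

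Of 65 genes chosen as partners of these proteases, 61 were listed and 48 had enough counts. Of the 48, 23 had a ratio above 1 (47.9%, background 51.1%) and 25 below, with a median log2 ratio of -0.02. The interval lay above 1-fold in 10 (20.8%, background 15.9%) and below it in 7 (14.6%, background 10.9%), shares near those of all genes. At least 1.5-fold higher were 5 (10.4%, background 3.52%), and none was 1.5-fold lower (background 2.72%). The shed ligands EREG and EGF, which bind the EGF receptor, had the highest ratios: EREG had 122 and 255 counts and a ratio of 1.89 (1.38 to 2.61), and EGF 1020 and 2057 counts and a ratio of 1.83 (1.64 to 2.03). The brain proteoglycan BCAN, a proteoglycanase substrate, had 58 and 108 counts and a ratio of 1.69 (1.05 to 2.75). The remaining 2, named after their values were seen, were the transcription factor ETS1, with 488 and 907 counts and a ratio of 1.68 (1.44 to 1.97), and the serine protease inhibitor TFPI2, with 367 and 609 counts and a ratio of 1.5 (1.25 to 1.81). The lowest ratios were those of the ligand NRG1 (0.728, 0.386 to 1.35), the collagen COL5A1 (0.752, 0.509 to 1.11) and fibronectin, FN1 (0.781, 0.537 to 1.13), all with intervals that crossed 1-fold.

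Of the 8 measured iRhoms, tetraspanins and FRMD8, which help the 2 ADAMs reach or stay at the cell surface, 2 were above 1 (background 51.1%) and 6 below, none had an interval above 1-fold, and 1, TSPAN33, had an interval below it (0.870, 0.766 to 0.988), against a background of 10.9%. The 3 measured proprotein convertases, which cut proenzymes into active form, had no interval on one side of 1-fold (background 15.9% above and 10.9% below). FURIN was at 11.8 and 12.0 FPKM. In the plasminogen system, which activates several pro-MMPs, 1 of the 5 measured genes had a ratio above 1 (background 51.1%) and 4 below. That 1 was the activator PLAT, with an interval above 1-fold (1.27, 1.17 to 1.37). The other activator, PLAU, had a ratio of 0.813 (0.623 to 1.06), and the median log2 ratio of the 5 was -0.06. BSG, the inducer of MMPs on tumour cells, was at 118 and 119 FPKM with a ratio of 1.02 (0.990 to 1.04), and the shed protein APP at 133 and 142 FPKM with a ratio of 1.07 (1.05 to 1.09). The 6 measured matrix substrates were all under 1 FPKM in both libraries. Of these, 2 had a ratio above 1 (background 51.1%) and 4 below. The interval lay above 1-fold in 1, BCAN (background 15.9%), and below it in 1, VCAN (background 10.9%). VCAN had 628 and 583 counts and a ratio of 0.840 (0.714 to 0.989). Of 11 transcription factors known at MMP promoters, 2 had an interval above 1-fold (ETS1 and FOSL2, background 15.9%) and 3 below it (JUN, JUNB and ETS2, background 10.9%).

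**Figure D5:**
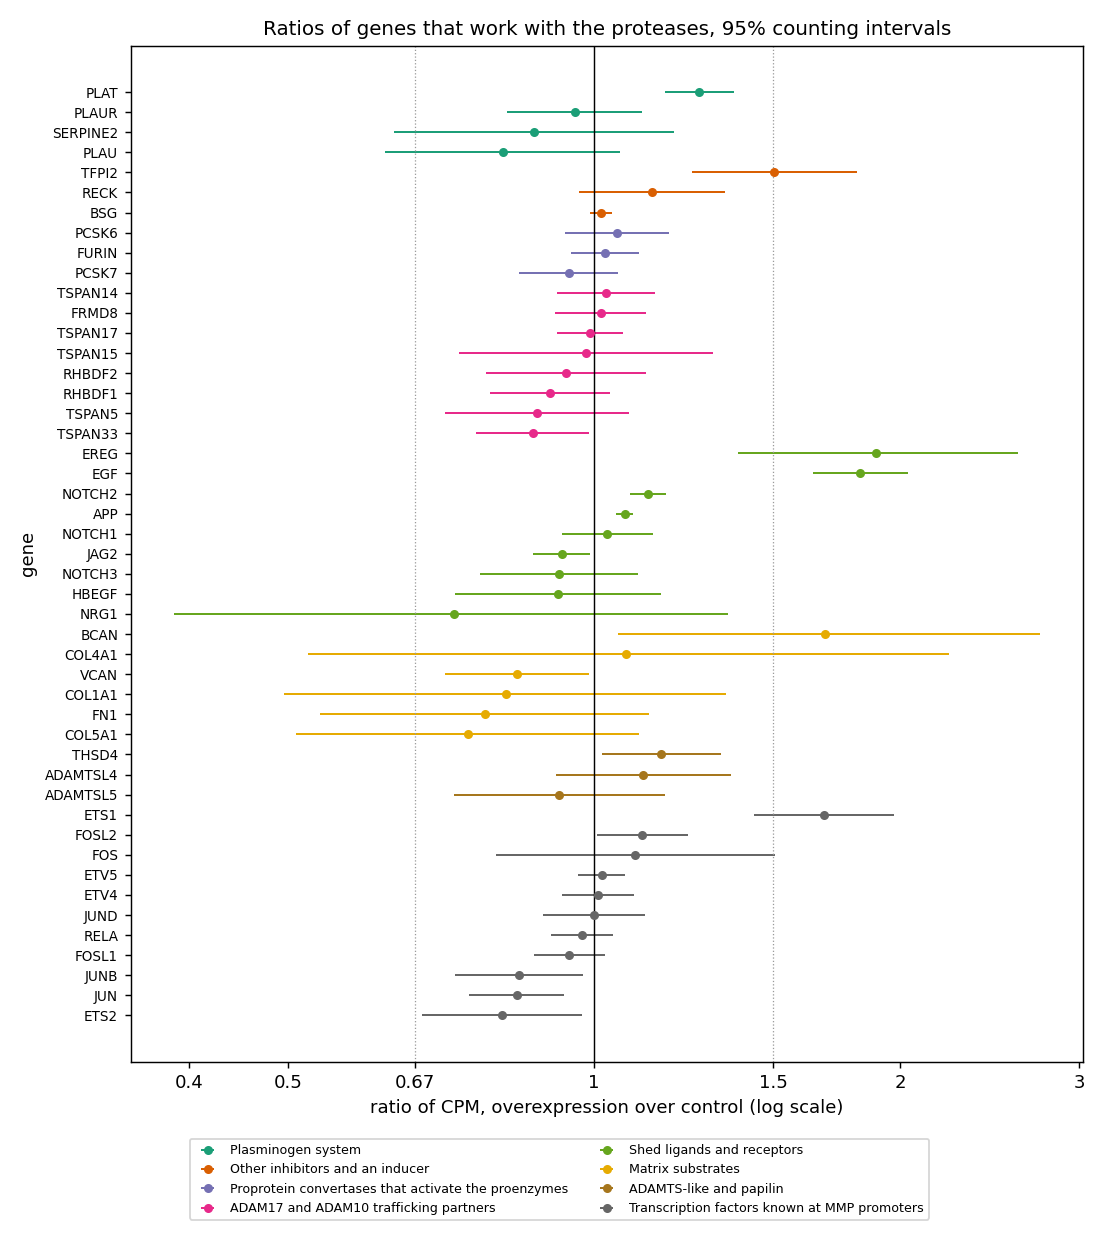
Ratio of CPM, overexpression over control (log axis), for 47 partner genes with at least 50 counts, coloured by their role; bars are 95% counting intervals from halved counts and dotted lines mark 1.5-fold either way. EREG, EGF, BCAN, ETS1 and TFPI2 lie at or beyond 1.5-fold, and the partners of ADAM10 and ADAM17 lie near or below 1-fold.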

How the data were processed

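The authors' table holds whole-number read counts for each gene, per the file headers. The authors also deposited FPKM values for each library and a log2 fold change. Solving FPKM for length with the listed total came within 0.01 of a whole number of bases in 99.99% of genes. The submitters' processing notes name GRCh38. Aligner, counter and annotation release stand as not given in the sources used here. Libraries were made with dUTP and PCR, per the labels' protocols, without molecular identifiers described, so reads are not independent molecules.

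Libraries were scaled by TMM (edgeR 4.0.16, R 4.3.3), and ratios were taken without a pseudocount for genes whose counts summed to 50 or more. Intervals were 95% Clopper-Pearson intervals of the share of counts in each library, from halved counts, since 64.1% and 63.3% of counts from 1 to 20 were even. A count of 3, the floor, equalled 0.0692 CPM in the control and 0.0627 CPM in the overexpression library. In simulated data with each fragment counted as 2 (14206 genes), 95.8% of halved intervals held the true ratio, against 84.2% from counts as deposited, 99 of 100 genes changed 2-fold passed 1.5-fold, and 3.46% of unchanged genes did. Counting each fragment as 2 makes every count even, whereas the libraries also held odd counts. How often halved intervals hold the true ratio in the libraries was not tested. Positions, transcripts and overlaps came from GENCODE release 29, promoters from RefSeq. Named genes were all with 50 counts or more, and lower ones where they head a group; from the partners, the 3 highest and lowest ratios and the 3 highest levels, of which 1 gene is not reported here or plotted. Other partners, and family genes under 50 counts that head no group, were chosen after their values were seen. The ADAM split was planned on RefSeq proteins and was made on GENCODE coding sequences instead. Genes, lists and roles were chosen with earlier results of these data known. Python 3.11.15, scipy 1.17.1 and matplotlib 3.10.9 were used. Alternatives were other scalings, among them DESeq2 1.42.0 size factors, FPKM ratios, pseudocounts, count minimums and fold thresholds.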

Additional observations from a re-analysis of the deposited data

How the results depend on the processing

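The ratios of the 30 measured family genes stayed within their counting intervals under scaling by library totals, DESeq2 size factors, deposited FPKM and pseudocounts of 1 and 0.1 CPM. The 10 genes with an interval on one side of 1-fold were 10 with library totals or DESeq2 size factors and 12 with counts as deposited, which added MMP12 and ADAM21. The count of 3 genes at least 1.5-fold different depended on the settings for low genes: it was 1 with a pseudocount of 1 CPM or a count minimum of 200, 7 with a count minimum of 10, none or a fold of 1.3, and 0 with a fold of 2. Without ADAM21 and ADAMTS7, an alternative chosen after seeing the data, it was 2. The median log2 ratio ranged from 0.04 to 0.06. No paired analysis was possible because each group had 1 library. Depth limits the 15 genes under 50 counts and the ADAMTS genes other than ADAMTS1, whose intervals are wide.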
